A study of Mus musculus with 18 samples.

Results

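The genes described here are 8 genes of secreted liver factors, FGF receptors and a co-receptor: Fgf21, Gdf15, Angptl4 and Fetub, which encode secreted proteins, Klb, the co-receptor of FGF21, and the FGF receptors Fgfr4, Fgfr2 and Fgfr3. They were picked by gene symbol, with their RPKM over the 6 groups in view, and are 8 of 19057 lines of the table of liver expression. RPKM is a read count scaled to the length of the gene and the size of the library, so that levels can be set side by side between genes. All 8 passed the filter for testing (RPKM of 1 or more in 3 or more livers), as did 10507 genes in all. Because the values chose the genes, their levels and differences are given as a description and not as tests.

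Livers of 18 male ICR mice aged 10 weeks were sequenced, 3 from each of 6 groups. Con mice had the regular diet and saline, and HFD mice a high-fat diet and saline. Con-FMT and A10-FMT mice had the high-fat diet and were gavaged with small intestinal microbiota, from control donors in Con-FMT and from donors given alginate oligosaccharide (AOS) at 10 mg/kg in A10-FMT. The luminal content of the donors was pooled before transfer, so that all recipients of a group shared a single inoculum. The remaining groups are labelled AOS at 10 mg/kg (AOS) and high-fat diet with AOS at 10 mg/kg (HFD+AOS). How these last mice were dosed is not given in the sources used here. The label of the AOS group names no diet, and it was compared with Con as a group on the regular diet. Each liver was a separate library.

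FGF21 is a hormone made mainly by hepatocytes in fasting, protein shortage and overfeeding. Its gene is a textbook target of PPARA, the fatty acid sensor, and of ATF4, the effector of the integrated stress response. It binds beta-Klotho (KLB), which presents it to an FGF receptor, mainly FGFR1 in fat and brain. In hepatocytes KLB is paired mostly with FGFR4, which reads the intestinal hormone FGF15 and holds down bile acid synthesis through Cyp7a1. GDF15 is a stress hormone that acts on the hindbrain receptor GFRAL to lower food intake. ANGPTL4 inhibits lipoprotein lipase and is another PPARA target. Fetuin-B, the product of Fetub, is a plasma protease inhibitor made by hepatocytes.

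The promoter of Fgf21 is shown because the gene varied most and because the letters of the ATF4 element are in it. Sequences are from RefSeq (GRCm38.p6), hold 250 bases before and 50 bases from the annotated start on, and are read 5′ to 3′ on the strand of the gene. Of the 8 genes, 7 had an entry, and all but Angptl4 were searched on both strands. The letters searched were the ATF4 element TGATGNAAT, the PPAR direct repeat AGGTCANAGGTCA with its single site AGGTCA, the E-box CACGTG that clock proteins and ChREBP can bind, and the D-box TTATGNAA. Capitals mark the ATF4 element, read here on the opposite strand, and the E-box. The AGGTCA of the direct repeat is counted among single sites too. The promoter of Fgf21 lies at chr7:45615441-45615740 on the minus strand, those of Gdf15 (the second of its 2 entries) at chr8:70632046-70632345 and of Fgfr2 at chr7:130266759-130267058, also on the minus strand.
Fgf21: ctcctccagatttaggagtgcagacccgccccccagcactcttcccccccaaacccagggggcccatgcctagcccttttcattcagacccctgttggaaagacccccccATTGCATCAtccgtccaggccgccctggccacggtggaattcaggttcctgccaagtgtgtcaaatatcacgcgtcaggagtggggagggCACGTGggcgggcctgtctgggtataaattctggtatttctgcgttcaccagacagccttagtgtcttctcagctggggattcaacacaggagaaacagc
Gdf15: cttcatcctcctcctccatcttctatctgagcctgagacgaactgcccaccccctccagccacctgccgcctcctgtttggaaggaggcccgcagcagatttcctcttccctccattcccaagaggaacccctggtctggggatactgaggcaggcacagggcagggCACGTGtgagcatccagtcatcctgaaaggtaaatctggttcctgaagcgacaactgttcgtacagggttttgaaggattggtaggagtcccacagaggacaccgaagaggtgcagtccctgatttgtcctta
Fgfr2: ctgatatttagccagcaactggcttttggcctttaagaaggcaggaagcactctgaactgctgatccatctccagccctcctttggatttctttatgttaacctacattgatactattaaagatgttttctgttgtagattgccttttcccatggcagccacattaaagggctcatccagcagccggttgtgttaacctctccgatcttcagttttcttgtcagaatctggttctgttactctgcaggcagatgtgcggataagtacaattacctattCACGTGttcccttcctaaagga

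In Fgf21 the ATF4 letters were at bases -140 to -132 and the E-box at bases -50 to -45 from the start. The ATF4 letters were in 0.965% of 32851 promoters of the same length and the E-box in 7.15%. In Gdf15 the E-box was at bases -83 to -78 and in Fgfr2 at bases 29 to 34. The other entry of Gdf15, at chr8:70632407-70632706, held the single site AGGTCA at bases -55 to -50, as did 16.3% of promoters. The second entry of Fetub held the D-box at bases 34 to 41, which 3.38% of promoters have. No member's window had the whole PPAR direct repeat, which was in 0.0396% of promoters. These are matches of letters in short windows and not binding measured in these livers.

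The genes lie on 6 chromosomes in RefSeq, and none of them overlaps another RefSeq gene. Fgf21 is at chromosome 7 from 45613890 to 45615490, Klb at chromosome 5 from 65348411 to 65386957 and Fgfr3 on the same chromosome from 33721724 to 33737068. Fgfr2 is at chromosome 7 from 130162451 to 130266808, Gdf15 at chromosome 8 from 70629393 to 70632470 and Fgfr4 at chromosome 13 from 55152818 to 55168759. Fetub is at chromosome 16 from 22918382 to 22939768 and Angptl4 at chromosome 17 from 33774900 to 33781575. The alignment settings report every hit of a read, so shared stretches were counted. None of the 35-base words of the longest GENCODE transcripts of Fgf21, Klb, Fgfr4, Fgfr2, Gdf15 and Fetub occurred in a transcript of another gene. In Fgfr3 21 of 4211 words were also in its pseudogene Fgfr3-ps, and in Angptl4 12 of 3274 words were shared.

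The libraries summed to 692303 to 806937 RPKM and had 14512 to 14982 genes above 0. Read numbers were not used here. The steps between low values of 28 sparsely read genes gave relative depths from 0.96 to 1.02 and, with GENCODE transcript lengths, an estimate of the reads behind each value. By that estimate Fgf21 rested on 7.38 reads in its lowest liver and 74.0 in its highest, Gdf15 on 19.1 to 168, and the other 6 genes on at least 116. Hepatocyte markers summed to 46777 to 69823 RPKM in every liver. Cholangiocyte markers summed to 23.11 to 41.24 RPKM in Con and 18.97 to 29.87 in the other groups. Most of that sum was Spp1, at 36.84, 18.52 and 30.14 RPKM in Con and 13.88 to 26.28 in the other groups. Other marker lists lay wholly apart in 1 comparison each. Stellate cell and fibroblast markers summed to 99.48 to 117.04 RPKM in HFD and 84.04 to 94.55 in Con. Red cell markers summed to 2112.04 to 2741.35 in AOS and 1255.58 to 1971.04 in Con, and lymphocyte markers to 3.30 to 3.59 and 2.69 to 3.19 in the same groups. Sinusoidal endothelium markers summed to 42.86 to 45.61 in Con-FMT and 37.72 to 40.05 in HFD, and hepatocyte markers to 56697 to 60048 in A10-FMT and 65991 to 68076 in Con-FMT. The part of these markers in the comparisons was not tested. The third Con liver lay between the other two Con livers in 145 of 148 genes in which those differed by 1 or more on the log2 scale, and the third AOS liver likewise in 137 of 142 genes, against 58.1% to 76.8% of genes for livers of the other 4 groups. Whether these libraries are independent was not tested. The log2 differences from Con of Fgf21, Angptl4 and Klb that are largest are given with and without them, and those of the other genes with them only. Without them the limma test called 0 genes in HFD against Con and in AOS against Con, with 1076 and 920 genes at an unadjusted p under 0.05. In these bulk livers, fewer cells of a type and less RNA per cell cannot be told apart.

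Fgf21 was lowest in Con and highest in HFD and Con-FMT, and it was low again in A10-FMT. Its RPKM was 0.98, 0.78 and 1.00 in the Con livers and 5.64, 2.46 and 5.15 in the HFD livers. It was 5.11, 7.82 and 3.22 in Con-FMT and 1.08, 1.15 and 1.37 in A10-FMT. The 3 HFD livers were all above the 3 Con livers, and the A10-FMT livers were all below both HFD and Con-FMT, whose livers overlapped. In the groups given AOS itself it was 2.81, 2.20 and 2.29 in AOS and 2.81, 2.27 and 4.20 in HFD+AOS. All AOS livers were above all Con livers, and the HFD+AOS livers overlapped those of HFD.

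In group means, Fgf21 stood at 5.38 ± 2.31 RPKM (SD, n = 3) in Con-FMT, 4.42 ± 1.71 in HFD, 3.09 ± 0.996 in HFD+AOS, 2.43 ± 0.329 in AOS, 1.20 ± 0.151 in A10-FMT and 0.92 ± 0.122 in Con. Neighbours in this order overlapped from Con-FMT down to AOS, while AOS and A10-FMT, and A10-FMT and Con, did not. A10-FMT and Con were barely apart, as Con reached 1.00 RPKM and A10-FMT began at 1.08. Each RPKM of Fgf21 stood for about 9.47 estimated reads, so nothing is read from that gap. The share of all genes apart in these pairs was not counted. The mean was 4.80 times that of Con in HFD and 2.64 times that of Con in AOS. HFD was 3.68 times A10-FMT, and Con-FMT was 4.49 times A10-FMT. The spread between livers was widest where the level was high, with a coefficient of variation of 38.8% in HFD and 43.0% in Con-FMT against 12.6% in A10-FMT and 13.2% in Con.

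On the log2(RPKM + 1) scale, which understates changes of a gene this low, Fgf21 differed by 1.44 (SE 0.25) between HFD and Con and by -1.25 (SE 0.25) in A10-FMT against HFD. The difference was -1.47 in A10-FMT against Con-FMT, 0.84 in AOS against Con, 0.23 in Con-FMT against HFD and -0.37 in HFD+AOS against HFD, each with an SE of 0.25. AOS thus went with a higher level on the regular diet and a lower mean on the high-fat diet, a difference between diets of -1.21 (SE 0.35). Without the third Con and AOS livers the first of these was 1.47 (SE 0.30), AOS against Con was 0.90 (SE 0.33) and the difference between diets was -1.27 (SE 0.42). Leaving out any 1 liver moved HFD against Con between 1.27 and 1.74 and A10-FMT against HFD between -1.54 and -1.07. It moved HFD+AOS against HFD between -0.67 and -0.20, and Con-FMT against HFD between -0.07 and 0.50, and the latter changed sign without HFD replicate 2 or without Con-FMT replicate 2. Comparisons with the same HFD or Con livers are not independent of each other.

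**Figure D1:**
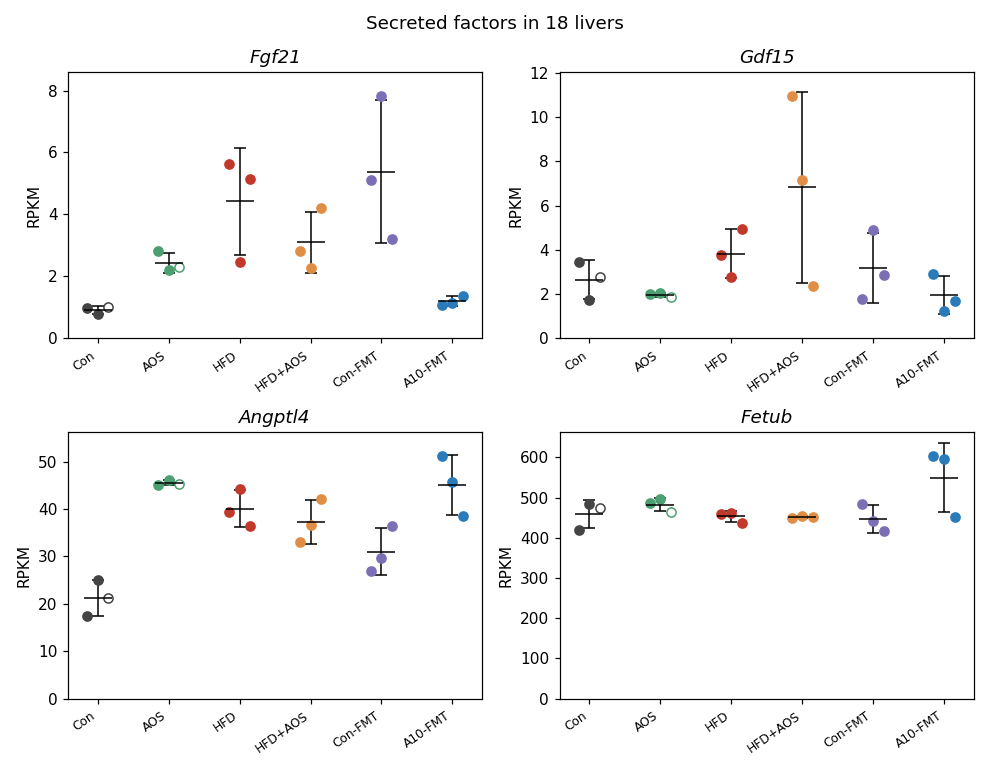
RPKM of the secreted factors Fgf21, Gdf15, Angptl4 and Fetub (y axes, from 0) in each liver by group (x axes); points are livers, open points the third Con and AOS livers, and bars the mean ± SD of 3. Fgf21 is at 0.78 to 1.00 in Con and 1.08 to 1.37 in A10-FMT, below every HFD liver (2.46 to 5.64), while Angptl4 is at 17.31 to 25.04 in Con and at 26.84 or more in all other livers.

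Angptl4, the lipoprotein lipase inhibitor, was low in Con alone. Its RPKM was 17.31, 25.04 and 21.28 in Con, 45.08, 46.09 and 45.34 in AOS and 39.36, 44.21 and 36.48 in HFD. It was 33.06, 36.51 and 42.20 in HFD+AOS, 26.84, 29.64 and 36.46 in Con-FMT and 51.10, 45.79 and 38.45 in A10-FMT. All 15 livers outside Con were above the 3 Con livers. The Con-FMT livers were below all HFD livers and below all A10-FMT livers, and A10-FMT overlapped HFD.

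The group means of Angptl4 were 45.5 ± 0.524 RPKM (SD, n = 3) in AOS, 45.1 ± 6.35 in A10-FMT, 40.0 ± 3.91 in HFD, 37.3 ± 4.62 in HFD+AOS, 31.0 ± 4.95 in Con-FMT and 21.2 ± 3.87 in Con. In that order every neighbouring pair overlapped but Con-FMT and Con. Angptl4 was 1.89 times as high in HFD as in Con and 2.15 times as high in AOS as in Con, and 1.46 times as high in A10-FMT as in Con-FMT. The log2 differences were 0.90 (SE 0.14) in HFD against Con, 1.08 (SE 0.14) in AOS against Con, 0.53 (SE 0.14) in A10-FMT against Con-FMT and -0.37 (SE 0.14) in Con-FMT against HFD. In HFD+AOS against HFD the difference was -0.10 (SE 0.14), so that the AOS difference was smaller on the high-fat diet by 1.18 (SE 0.20) in log2 units, the difference between diets being -1.18. Without the third Con and AOS livers these values were 0.91 (SE 0.17), 1.09 (SE 0.19) and, for the diets, -1.20 (SE 0.24).

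Angptl4 is also made by fat cells. The adipocyte markers Adipoq, Lep, Plin1 and Cfd summed to 27.68 RPKM in A10-FMT replicate 1, to 1.86 in A10-FMT replicate 2 and to 0.32 or less in the other 16 livers. Most of the sum was Cfd, at up to 22.05 RPKM, and Adipoq reached 4.42. The liver with the highest sum also had the highest Angptl4 of all livers, 51.10 RPKM. Angptl4 differed by 0.16 (SE 0.14) in A10-FMT against HFD and moved between 0.07 and 0.27 when 1 liver was left out, and A10-FMT against Con-FMT between 0.44 and 0.65. In the comparisons of AOS and HFD with Con these markers summed to 0.32 or less throughout, and their part in the A10-FMT values was not tested.

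Gdf15 varied nearly as widely as Fgf21, with its widest spread in HFD+AOS. Its RPKM was 3.47, 1.73 and 2.75 in Con, 1.99, 2.06 and 1.88 in AOS and 3.76, 2.78 and 4.96 in HFD. It was 10.95, 7.16 and 2.36 in HFD+AOS, 1.79, 4.91 and 2.86 in Con-FMT and 2.92, 1.24 and 1.69 in A10-FMT. The highest levels of the gene were in HFD+AOS replicates 1 and 2, and the third liver of that group was below all HFD livers.

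Means of Gdf15 ran from 6.82 ± 4.30 RPKM (SD, n = 3) in HFD+AOS, 3.83 ± 1.09 in HFD, 3.19 ± 1.59 in Con-FMT and 2.65 ± 0.874 in Con to 1.98 ± 0.0907 in AOS and 1.95 ± 0.870 in A10-FMT. All neighbours in this order overlapped, and in none of the 6 comparisons were the groups wholly apart. The log2 difference was 0.54 (SE 0.37) in HFD+AOS against HFD, and it moved from 0.14 to 1.06 depending on the liver left out, the latter without HFD+AOS replicate 3. It was -0.73 (SE 0.37) in A10-FMT against HFD and 0.41 (SE 0.37) in HFD against Con.

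Fetub was by far the most abundant of the 8 genes, with a median of 461 RPKM over the 18 livers and a median rank of 159 among 19057 lines, and it was nearly level. Its RPKM was 418.65, 485.27 and 473.04 in Con, 486.77, 496.30 and 465.18 in AOS and 460.11, 461.92 and 437.99 in HFD. It was 449.60, 454.76 and 452.69 in HFD+AOS, 482.91, 440.79 and 415.93 in Con-FMT and 602.63, 595.37 and 451.35 in A10-FMT. Replicates 1 and 2 of A10-FMT were above all other livers, and replicate 3 was within the range of HFD.

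The A10-FMT mean of Fetub was 549.8 ± 85.3 RPKM (SD, n = 3), and the other 5 means lay between 446.5 ± 33.9 in Con-FMT and 482.8 ± 15.9 in AOS. All neighbours in the order of groups overlapped. The log2 difference of A10-FMT was 0.27 (SE 0.10) against HFD, and 0.40 without A10-FMT replicate 3. HFD and HFD+AOS differed by a factor of 1.00, with 453.3 ± 13.3 and 452.4 ± 2.60 RPKM. Replicates 1 and 2 of A10-FMT were also the livers with adipocyte markers at 27.68 and 1.86 RPKM; the part of that in the level of Fetub was not tested.

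Klb, which FGF21 needs for binding, had its lowest levels in Con. The RPKM of Klb was 3.29, 5.65 and 4.35 in Con, 7.22, 6.27 and 6.55 in AOS and 4.82, 5.19 and 6.33 in HFD. It was 5.52, 6.35 and 8.65 in HFD+AOS, 6.80, 7.05 and 6.56 in Con-FMT and 8.21, 5.21 and 6.75 in A10-FMT. The AOS livers were all above the Con livers, and the Con-FMT livers all above the HFD livers, while HFD overlapped Con. The means were 4.43 ± 1.18 RPKM (SD, n = 3) in Con, 5.45 ± 0.787 in HFD and 6.68 ± 0.488 to 6.84 ± 1.62 in the other 4 groups, with overlap between all neighbours. The log2 difference was 0.52 (SE 0.17) in AOS against Con, 0.53 (SE 0.22) without the third livers, and 0.25 to 0.28 (SE 0.17) for HFD against Con and for each of A10-FMT, Con-FMT and HFD+AOS against HFD. Klb was at 0.99 times its Con-FMT mean in A10-FMT, where Fgf21 was at 0.22 times.

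Fgfr4, the main hepatocyte FGF receptor, was the most abundant of the 3 receptors and the least variable of the 8 genes, from 18.68 to 23.99 RPKM. It was 20.54, 19.79 and 20.76 in Con, 22.54, 22.07 and 21.22 in AOS and 21.90, 19.55 and 18.68 in HFD. In HFD+AOS it was 22.50, 20.18 and 21.51, in Con-FMT 20.30, 23.99 and 22.71 and in A10-FMT 20.53, 18.90 and 19.82. The 3 AOS livers were above the 3 Con livers, by a ratio of means of 1.08. The means lay between 19.8 ± 0.817 (SD, n = 3) in A10-FMT and 22.3 ± 1.87 in Con-FMT, and all neighbours overlapped. The log2 differences were between -0.17 and 0.15, each with an SE of 0.08.

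Fgfr2 and Fgfr3 were lower than Fgfr4, at 5.21 to 8.32 and 6.78 to 10.46 RPKM. Fgfr2, a receptor mostly of FGFs from neighbouring cells, was at 6.05, 7.20 and 7.10 in Con, 7.65, 8.16 and 8.03 in AOS, 6.48, 6.95 and 7.57 in HFD, 5.79, 7.98 and 8.32 in HFD+AOS, 6.10, 7.49 and 6.15 in Con-FMT and 8.03, 5.21 and 6.72 in A10-FMT. Only the AOS livers stood apart from their comparison group, all above Con, with a log2 difference of 0.20 (SE 0.13). Fgfr3, best known as a brake on growth of cartilage, was at 8.17, 8.54 and 8.63 in Con, 10.46, 6.94 and 7.88 in AOS, 7.03, 7.95 and 7.64 in HFD, 8.97, 7.53 and 10.20 in HFD+AOS, 7.82, 6.78 and 8.94 in Con-FMT and 8.66, 7.05 and 8.10 in A10-FMT. The HFD livers were all below the Con livers, with a log2 difference of -0.15 (SE 0.13) and means of 7.54 ± 0.468 and 8.45 ± 0.244 RPKM (SD, n = 3). For Fgfr2 and Fgfr3 all neighbours in the order of groups overlapped.

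**Figure D2:**
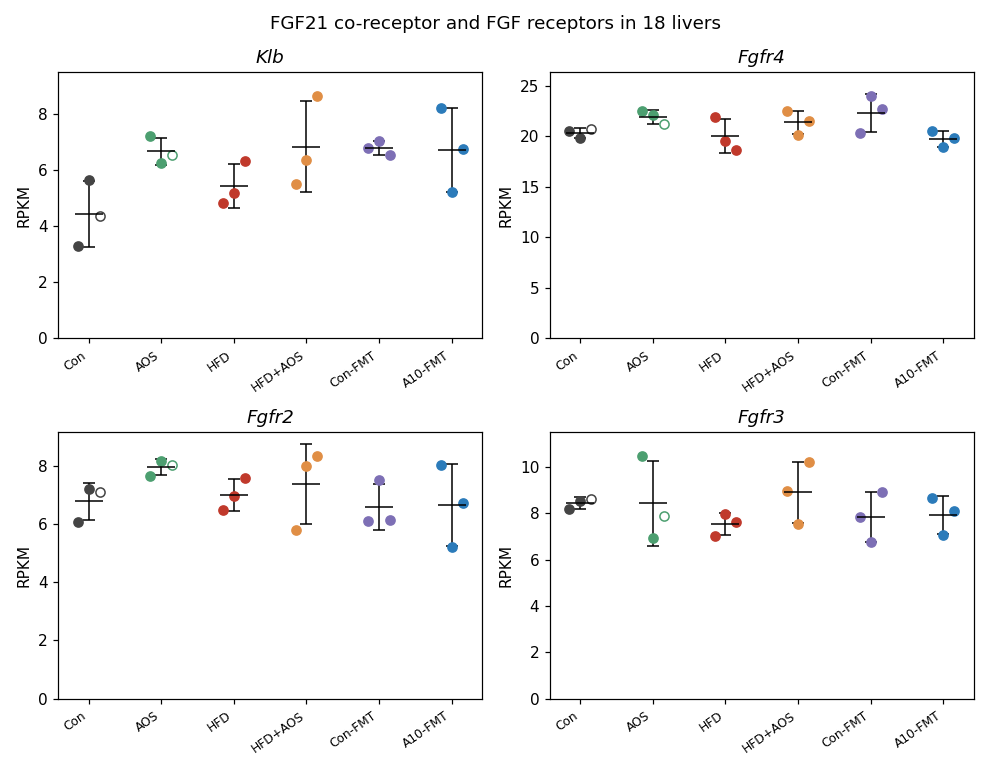
RPKM of Klb, Fgfr4, Fgfr2 and Fgfr3 (y axes, from 0) in each liver by group (x axes); points are livers, open points the third Con and AOS livers, and bars the mean ± SD of 3. Klb ranges from 3.29 in a Con liver to 8.65 in an HFD+AOS liver, while Fgfr4 stays between 18.68 and 23.99 in all 18 livers.

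The highest liver was 10.0 times the lowest for Fgf21, 8.83 times for Gdf15, 2.95 times for Angptl4 and 2.63 times for Klb, and 1.28 to 1.60 times for the receptors and Fetub. The 3 livers of each group were wholly apart for 3 of the 8 genes in HFD against Con, where 18.5% of all genes tested were. They were apart for 1 gene in A10-FMT against HFD (23.4% of all genes), for 2 in Con-FMT against HFD (10.1%), for 2 in A10-FMT against Con-FMT (18.3%) and for 5 in AOS against Con (24.7%). In HFD+AOS against HFD none of the 8 was, where 27.2% of all genes were. The 5 genes of AOS against Con were Fgf21, Klb, Fgfr4, Fgfr2 and Angptl4, all higher in AOS. Of the 2600 genes wholly apart there, 2046 were higher in AOS. That count includes the third Con and AOS livers, whose independence was not tested.

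With the limma test over all genes (called at a Benjamini-Hochberg adjusted p under 0.05), 2 of the 8 were called in HFD against Con, Fgf21 and Angptl4, where 0.381% of genes were called. Fgf21 alone was called in A10-FMT against HFD and in A10-FMT against Con-FMT, where 6.6% and 1.68% were, and Angptl4 alone in AOS against Con and between the diets, where 0.133% and 0.504% were. In Con-FMT against HFD and HFD+AOS against HFD 0 of the 8 were called, against 0.00952% and 8.75% of all genes, and 1 and 0 of the 8 were at an unadjusted p under 0.05. The levels chose these genes, so nothing is read from these counts. The calls of HFD against Con and AOS against Con, and that of Angptl4 between the diets, were lost without the third Con and AOS livers, and the calls against Con also without Con replicate 1 or 3 alone. The call of Fgf21 in HFD was also lost without HFD replicate 1 or 3, that of Angptl4 in HFD without HFD replicate 2 and that of Angptl4 in AOS without AOS replicate 3. In those fits the log2 differences of Fgf21 and Angptl4 in HFD against Con stayed at 1.27 or more and 0.76 or more.

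**Figure D3:**
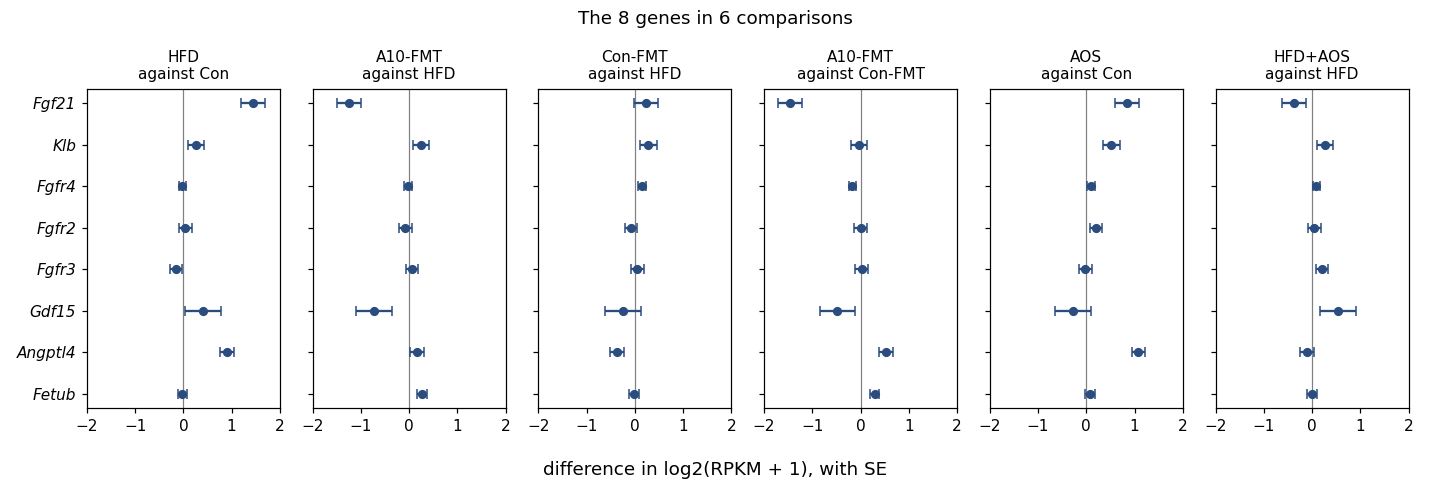
Differences in log2(RPKM + 1) (x axes) of the 8 genes (y axis) in 6 comparisons (panels); points are the fitted differences and bars their SE. Fgf21 is at 1.44 in HFD against Con and at -1.25 and -1.47 for A10-FMT against HFD and Con-FMT, Angptl4 is at 0.90 and 1.08 in the comparisons with Con, and the FGF receptors lie between -0.17 and 0.21.

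The genes around the 8 were described by 9 lists of 187 genes with 146 tested, none of them a member. Fgfrl1, a receptor of the family without a kinase that is thought to bind FGFs as a decoy, was the listed FGF gene with the smallest p. Its RPKM was 5.57, 5.67 and 5.44 in HFD, 10.57, 10.93 and 12.78 in HFD+AOS, 9.33, 9.06 and 8.83 in A10-FMT and 8.45, 7.40 and 7.08 in Con-FMT. It rose by 0.92 (SE 0.10, limma adjusted p = 8.7e-05) in HFD+AOS and by 0.62 (SE 0.10, adjusted p = 0.00197) in A10-FMT against HFD, and both calls held under 12 of 12 alternatives, with adjusted p up to 0.0029 and 0.0172. It was 1 of 7 listed FGF ligands, receptors and co-receptors tested in each of those comparisons, and the medians of the 7 were 0.06 and 0.00 beside -0.01 and -0.03 over all genes. Of all genes 8.75% and 6.6% were called there. Fgfr1, the receptor that mediates FGF21 in fat, was at 0.47 to 1.65 RPKM, and the listed Klotho gene Kl at 0.05 or less.

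Of 26 genes of FGF receptor signalling tested, 1 fell in HFD+AOS against HFD, where 8.75% of all genes were called. It was Braf, a kinase of the MAPK cascade (log2 difference -0.29, SE 0.08, limma adjusted p = 0.0474). Its call was lost without the third Con and AOS livers (adjusted p = 0.0857) and without HFD replicate 2 or 3 or HFD+AOS replicate 1 or 2, with adjusted p up to 0.197. The list had its median at 0.08 in HFD against Con, with 24 of 26 above 0, where the median of all genes was 0.05. Of the feedback inhibitors, Spred2 was at 1.55, 2.01 and 1.57 RPKM in Con and 2.63 to 2.83 in AOS, and was not called.

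Of the 6 genes of bile acid synthesis and its control, Nr1h4, which encodes the bile acid receptor FXR, rose in A10-FMT against HFD by 0.39 (SE 0.10, limma adjusted p = 0.0377), in A10-FMT against Con-FMT by 0.49 (SE 0.10, adjusted p = 0.0285) and in HFD+AOS against HFD by 0.38 (SE 0.10, adjusted p = 0.0378). Of all genes 6.6%, 1.68% and 8.75% were called in these comparisons. The RPKM of Nr1h4 was 88.71, 96.25 and 72.39 in A10-FMT, 84.99, 81.23 and 87.34 in HFD+AOS and 54.44 to 73.37 in the other 4 groups. All 3 calls were lost without the third Con and AOS livers (adjusted p = 0.0748, 0.071 and 0.0738), and each without single libraries, with adjusted p up to 0.236. These were HFD replicates 1 and 3 and A10-FMT replicates 1 and 2 for the first, all Con-FMT livers and A10-FMT replicates 1 and 2 for the second, and HFD replicates 1 and 3 and all HFD+AOS livers for the last. Cyp7a1, the rate-limiting enzyme that FGFR4 signals lower, was spread from 8.63 to 66.70 RPKM within HFD alone and was not called in any comparison.

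PPARA and its targets had medians above that of all genes in HFD and in AOS against Con, where Fgf21 and Angptl4 stood above Con. This was not particular to them. It held for A10-FMT and HFD+AOS against HFD (below) and for Con-FMT against HFD, but not for A10-FMT against Con-FMT (-0.08 beside -0.03). In Con-FMT against HFD 19 of 26 were above 0, with a median of 0.17 beside -0.002 and 0 called. In HFD against Con 25 of 26 tested were above 0 with a median of 0.32, and in AOS against Con 26 of 26 with a median of 0.37, where the medians of all genes were 0.05 and 0.07. Of these 1 and 0 were called, where 0.381% and 0.133% of all genes were, and 12 and 11 were at an unadjusted p under 0.05 (limma). The one called was Hadhb, of the mitochondrial trifunctional protein, at 58.72, 75.54 and 65.70 RPKM in Con and 97.90 to 99.58 in HFD (log2 difference 0.56, SE 0.08, adjusted p = 0.0175, and 0.194 without the third livers; the call was also lost without Con replicate 1 or 3 alone). Both comparisons share the Con livers.

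In A10-FMT against HFD, where Fgf21 was lower, 4 of 26 PPARA genes were called in both directions, with a median of 0.12 beside -0.03. Of all genes 6.6% were called there. Pdk4, which closes the entry of pyruvate to the mitochondrion in fasting, fell by 1.34 (SE 0.23, limma adjusted p = 0.00293), from 2.18, 3.64 and 3.65 RPKM to 0.38, 0.27 and 1.43. The fatty acid hydroxylases Cyp4a14 and Cyp4a10 fell by 2.84 (SE 0.77, adjusted p = 0.0384) and 2.44 (SE 0.70, adjusted p = 0.0474), calls that were lost without the third Con and AOS livers (adjusted p = 0.0732 and 0.0861) and without any 1 of the HFD livers or A10-FMT replicate 1 or 2 (up to 0.144 and 0.171). Ppara itself rose by 0.59 (SE 0.14, adjusted p = 0.0223, up to 0.104 and lost without HFD replicate 2 or 3 or A10-FMT replicate 1 or 2). The levels of Cyp4a14 in Con-FMT were 2.18, 29.57 and 13.95 RPKM, and those of Fgf21 in the same livers 5.11, 7.82 and 3.22.

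In HFD+AOS against HFD, 5 of the 26 were called, where 8.75% of all genes were, with a median of 0.20 beside -0.01. Ppara rose by 0.87 (SE 0.14, limma adjusted p = 0.002, 12 of 12 alternatives) and Cpt1a, the gate of mitochondrial fatty acid uptake, by 0.69 (SE 0.13, adjusted p = 0.00388). Pdk4 fell by 1.13 (SE 0.23, adjusted p = 0.00826). The fatty acid transporter Cd36 and the thioesterase Acot3 rose by 0.68 (adjusted p = 0.0329) and 1.58 (adjusted p = 0.0485), and both calls were lost without the third Con and AOS livers (adjusted p = 0.0602 and 0.085) and without any 1 of HFD replicates 2 and 3 and HFD+AOS replicates 1 and 3, that of Acot3 also without HFD replicate 1, with adjusted p up to 0.154 and 0.203. Cpt1a stayed called under 11 of 12 alternatives, and Pdk4 under 12.

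Among genes of ATF4 and the integrated stress response, in HFD against Con 16 of 21 tested were above 0 with a median of 0.10, and 0 were called by limma, with 1 at an unadjusted p under 0.05. Of the 21, A10-FMT against HFD had 2 called, both lower, with a median of -0.12, where 6.6% of all genes were called, and HFD+AOS against HFD had 2, in opposite directions, where 8.75% were. Atf5, a transcription factor of the mitochondrial stress response, fell by 0.80 (SE 0.19, adjusted p = 0.0208), from 129.53, 155.80 and 150.39 RPKM to 89.17, 54.77 and 116.36. It was also lower in A10-FMT than in Con-FMT by a log2 difference of -0.88 (SE 0.19, adjusted p = 0.0285). Both calls of Atf5 were lost without A10-FMT replicate 1 or 2 and with only the groups compared. The first was also lost without HFD replicate 2 or 3. The second was also lost without Con-FMT replicate 2, with no filter, or without the third Con and AOS livers (adjusted p = 0.0682). Over all alternatives the adjusted p was up to 0.186 and 0.274. Ddit4, an inhibitor of mTORC1, had log2 differences of -0.65 (SE 0.18, adjusted p = 0.045, up to 0.238, lost without the third Con and AOS livers at 0.0812 and without any 1 of the HFD livers or A10-FMT replicate 1 or 2) in A10-FMT and -0.79 (SE 0.18, adjusted p = 0.0167, 0.0719 at most, lost without HFD replicate 3 or HFD+AOS replicate 1) in HFD+AOS. Trib3, a pseudokinase induced by ATF4, rose in HFD+AOS by 1.54 (SE 0.35, adjusted p = 0.0152), to 6.76, 8.94 and 10.92 RPKM from 2.68, 3.31 and 1.34 in HFD, and lost the call without HFD replicate 3 or HFD+AOS replicate 3 (up to 0.0776). Gdf15 was highest in HFD+AOS replicates 1 and 2 and low in replicate 3. These are single livers, and the part of ATF4 in the level of Gdf15 was not tested.

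Among 23 other hepatokines tested, 1 was called in HFD against Con, 3 when A10-FMT and 5 when HFD+AOS was set against HFD, and 0 in the other 3 comparisons, in which 3 to 5 were at an unadjusted p under 0.05 (limma). Of all genes 0.381%, 6.6% and 8.75% were called in the comparisons with calls, and 0.00952% to 1.68% in the other 3. Lect2, a hepatokine linked to fatty liver, rose in HFD+AOS by 0.67 (SE 0.12, adjusted p = 0.00433, 12 of 12 alternatives), to 176.56, 138.72 and 165.43 RPKM from 93.30, 110.34 and 96.34. In A10-FMT it rose by 0.47 (SE 0.12, adjusted p = 0.0329, up to 0.148), to 132.58, 154.18 and 130.64 RPKM, and Rbp4, the retinol carrier, by 0.43 (SE 0.11, adjusted p = 0.0261, up to 0.156). Igfbp1, induced by fasting and glucagon, fell by 2.51 (SE 0.61, adjusted p = 0.0233, up to 0.198) in A10-FMT and by 2.14 (SE 0.61, adjusted p = 0.0414, up to 0.167) in HFD+AOS, against HFD levels of 11.18, 42.18 and 138.83 RPKM. In HFD+AOS Inhbe, an activin subunit, rose by 0.99 (adjusted p = 0.039) and the secreted protein gene Smoc1 by 0.36 (adjusted p = 0.0451), and Manf, a factor of the endoplasmic reticulum, fell by 0.99 (adjusted p = 0.0435). Apart from that of Lect2 in HFD+AOS, each of these calls was lost without HFD replicate 3 and without the third Con and AOS livers, with the highest adjusted p of any of them at 0.198. Other livers whose loss ended calls were HFD replicate 1 (Lect2, Manf, Smoc1), HFD replicate 2 (Rbp4, Igfbp1, Inhbe, Manf, Smoc1), A10-FMT replicate 1 (Rbp4, Lect2) and 2 (Rbp4, Lect2, Igfbp1), and HFD+AOS replicates 1 and 3 (Igfbp1, Inhbe, Manf, Smoc1) and 2 (Igfbp1, Inhbe, Manf). Lcn2, an acute phase protein, was at 1043.15, 47.53 and 612.28 RPKM in Con and 6.12 to 38.81 in HFD, a fall of 4.46 (SE 0.90, adjusted p = 0.0448) that was lost without the third Con and AOS livers (adjusted p = 0.315, the highest over the alternatives) and without any 1 of Con replicates 1 and 3 and the HFD livers.

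The lipoprotein lipase genes on whose product ANGPTL4 acts had 1 call in A10-FMT against HFD and 1 in A10-FMT against Con-FMT, both Sel1l, an endoplasmic reticulum factor that matures the lipase (log2 differences -0.45 and -0.58, SE 0.13 for both, limma adjusted p = 0.0489 and 0.0309). Both were lost without the third Con and AOS livers (adjusted p = 0.0894 and 0.0745) and without A10-FMT replicate 1 or 2, the first also without any 1 HFD liver and the second also without Con-FMT replicate 2 or 3, with adjusted p up to 0.172 and 0.274. Of all genes 6.6% were called in A10-FMT against HFD and 1.68% in A10-FMT against Con-FMT. Lpl was at 9.22, 12.05 and 10.72 RPKM in Con and 4.23, 5.77 and 6.52 in HFD, and was not called. The medians of the 9 tested were -0.02 in HFD against Con and 0.13 in AOS against Con, where Angptl4 was 0.90 and 1.08.

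Of 12 genes of ChREBP, the sugar sensor that also acts on Fgf21, Thrsp was called in 3 comparisons. This regulator of fatty acid synthesis rose by 2.64 (SE 0.49, limma adjusted p = 0.00487) in A10-FMT and by 2.39 (SE 0.49, adjusted p = 0.00826) in HFD+AOS against HFD, each under 12 of 12 alternatives, and by 2.70 (SE 0.49, adjusted p = 0.00979) in A10-FMT against Con-FMT, where it was lost without Con-FMT replicate 2 or A10-FMT replicate 2 (up to 0.121). G6pc, the last enzyme of glucose output, fell in HFD+AOS by 1.58 (SE 0.35, adjusted p = 0.0137), lost without HFD replicate 3 or HFD+AOS replicate 1 or 2 (up to 0.0967). Of all genes 6.6% were called in A10-FMT against HFD, 8.75% in HFD+AOS against HFD and 1.68% in A10-FMT against Con-FMT. In HFD against Con 3 of the 12 were above 0 with a median of -0.23, the lowest of the 9 lists, and in AOS against Con 11 of 12 with a median of 0.33, with 0 called and 2 at an unadjusted p under 0.05 in each. Fgf21 was above Con in both, and the part of ChREBP in its level was not tested.

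**Figure D4:**
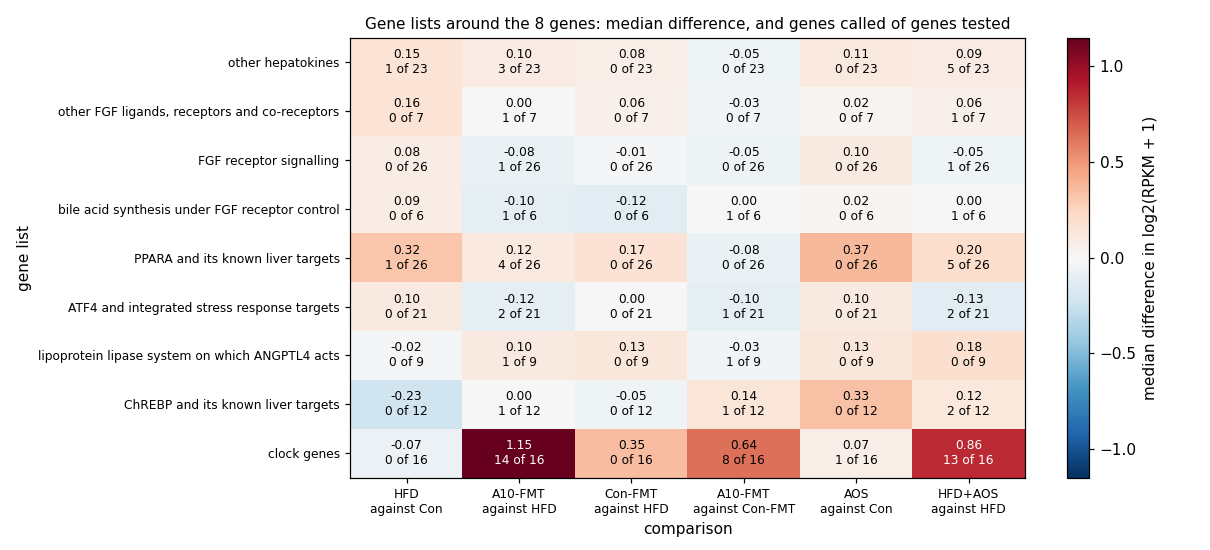
Median difference in log2(RPKM + 1) of each of 9 gene lists (y axis) in 6 comparisons (x axis), as colour and as the upper number of each cell; the lower number is the genes called of those tested. Clock genes stand at 1.15 (14 of 16 called) in A10-FMT against HFD and 0.86 (13 of 16) in HFD+AOS against HFD, and PPARA targets at 0.32 and 0.37 in HFD and AOS against Con.

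Clock genes, of which several control the daily cycle of Fgf21 and of PPARA targets, gave many of the calls among the listed genes. Of 16 clock genes 14 were called in A10-FMT against HFD, of 28 listed genes called there, 13 of 30 in HFD+AOS against HFD and 8 of 12 in A10-FMT against Con-FMT, with 1, Nr1d2, in AOS against Con (1.39, SE 0.22, limma adjusted p = 0.0221, and 0.46 without the third Con and AOS livers). Of all genes 6.6%, 8.75%, 1.68% and 0.133% were called in these comparisons, in that order. In HFD against Con and Con-FMT against HFD 0 were called, where 0.381% and 0.00952% of all genes were, with 3 and 10 at an unadjusted p under 0.05. Nr1d2 also lost its call without Con replicate 1 or 3 or AOS replicate 1 or 3. Arntl, the activator of the clock, was at 0.79, 0.69 and 2.41 RPKM in A10-FMT and 1.18, 1.23 and 1.32 in HFD+AOS, and at 6.94 or more in every other liver. Its log2 difference was -2.71 (SE 0.22, adjusted p = 6.57e-06) in A10-FMT and -2.67 (SE 0.22, adjusted p = 6.38e-06) in HFD+AOS against HFD. Dbp, an output gene of the clock, was at 49.17 to 126.90 RPKM in those groups. It was at 3.24 to 22.57 in Con-FMT, 0.27 to 0.59 in HFD and 3.41 or less in Con and AOS.

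The times of day of sampling are not given in the sources used here. Arntl was at 10.11 to 12.90 RPKM in Con, 11.16 to 12.72 in AOS and 12.11 to 14.64 in HFD, ranges that overlap in part. Fgf21 was at 0.78 to 1.00 in Con, 2.20 to 2.81 in AOS and 2.46 to 5.64 in HFD. Other clock genes did differ between these groups. Nr1d1, a repressor of Arntl, was at 1.22 to 3.68 RPKM in Con, 10.03 to 30.70 in AOS and 2.12 to 21.72 in HFD, and its relative Nr1d2 at 2.05 to 3.03, 6.39 to 10.41 and 2.55 to 6.32. A10-FMT and HFD+AOS livers had Arntl of 2.41 or less, with Fgf21 at 1.08 to 1.37 in A10-FMT and 2.27 to 4.20 in HFD+AOS, so that these groups did not overlap in Fgf21. In Con-FMT, Arntl was 8.02, 12.97 and 6.94 and Fgf21 5.11, 7.82 and 3.22 RPKM in the same livers. The levels of clock genes moved with the group for A10-FMT against HFD or Con-FMT and for HFD+AOS against HFD. Those of Nr1d1 and Nr1d2 did so for AOS against Con. In Con-FMT against HFD 10 of 16 clock genes were at an unadjusted p under 0.05 (limma), with 0 called. Dbp was higher there by 3.04 (SE 0.51, adjusted p = 0.105). The part of clock genes in any difference of Fgf21, comparisons with Con included, was not tested.

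**Figure D5:**
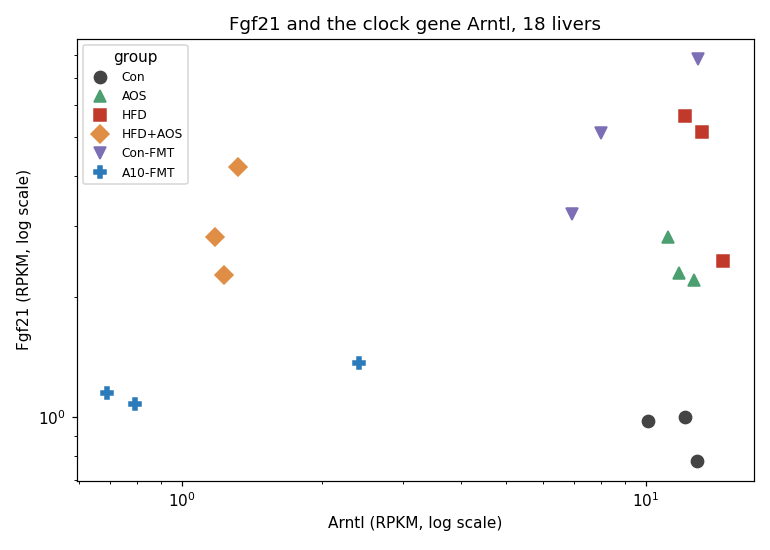
RPKM of Fgf21 (y axis, log scale) against that of the clock gene Arntl (x axis, log scale) in each of 18 livers, marked by group. A10-FMT and HFD+AOS livers lie at an Arntl of 2.41 or less and are apart in Fgf21 (1.08 to 1.37 and 2.27 to 4.20). Con and HFD livers overlap in part in Arntl (10.11 to 12.90 and 12.11 to 14.64) and are apart in Fgf21 as well.

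The genes most like Fgf21 over the 18 livers, by Pearson's r of log2(RPKM + 1) among the genes tested, were Brox (0.90), Ddx6 (0.86) and Pja2 (0.85). For Klb they were Unc93a2 (0.91), Txnrd2 (0.91) and Soat2 (0.90), and for Angptl4 Laptm4a (0.86), Rbpms2 (0.84) and Zfp750 (0.84). The immediate early gene Junb was nearest to Gdf15 (0.81), before Galnt10 (0.75). Gpat4 was nearest to Fetub (0.82, Spearman's rho 0.42), followed by Tk1 (0.80) and Olfr1383 (0.80). For the receptors the nearest were Ankrd50, Lrsam1 and Nfatc1 for Fgfr4 (0.78 to 0.83), Rad50, Nr2c2 and Ndst2 for Fgfr2 (0.78 to 0.79) and Mrps15, Cd209c and H2-DMb1 for Fgfr3 (0.76 to 0.80). These were the highest of 10507 genes each, the livers share group and library, and no test was made.

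Between the 8 genes themselves the likeness was lower. Fgf21 had an r of 0.36 with Klb, 0.44 with Fgfr4, 0.33 with Gdf15, 0.16 with Angptl4 and -0.40 with Fetub over the 18 livers. The highest among the 28 pairs was that of Klb and Angptl4 (r = 0.62, Spearman's rho 0.32), which were both lowest in Con.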

How the data were processed

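Liver RNA of 18 mice (TRIzol, PureLink kit, Illumina sequencing) was analysed from 1 table of the series, 3 livers for each of 6 groups. Per the study's methods the authors mapped reads with SOAPaligner, every hit being reported. The submitters' processing notes name Bowtie 0.12.2 and the mm10 build. The annotation and the strandedness are not given in the sources used here. The authors deposited RPKM values with 2 decimals and no read numbers, so depth was estimated from the steps of low values, and the study's own test, which needs read numbers, was not run. Groups were taken from the labels.

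Genes at RPKM 1 or higher in 3 or more livers were fitted as log2(RPKM + 1) with limma 3.58.1 in R 4.3.3 (a mean for each of 6 groups over all 18 livers, eBayes with trend, two-sided), with Benjamini-Hochberg adjustment of p-values over 10507 genes. A gene was called at an adjusted p under 0.05. Each p rests on the spread between livers within groups, shared over all 6 groups and moderated across genes. It takes the third Con and AOS livers as independent. It holds no spread between inocula, as each FMT group had a single inoculum. The 8 genes and the 9 lists were chosen with earlier results of these data known. Of each list the up to 3 genes with the smallest unadjusted p in any comparison were named, with every called gene where a count was 5 or fewer, and any other listed gene was chosen after its values were seen. Plin2, on 2 lines of the table, was left out of its list, and Fgf3, Fgf6, Fgf15 and Chi3l1 were not analysed here. A few results that meet these rules are not reported here.

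Alternatives were library medians set equal, a pseudocount of 0.1, no filter, only the groups compared, a replicate block, omission of the third Con and AOS livers, and each library left out. An adjusted p given with a call as up to a value is the highest over all of these. Many calls of listed genes were lost with no filter or with only the groups compared as well as without the livers named. Among them were those of Nr1h4, Sel1l, Braf and Cyp4a10, and that of Ddit4 in A10-FMT against HFD. Fits were tested on simulated data. Tables and figures were made with Python 3.11.15, numpy 2.4.6, pandas 2.3.3 and matplotlib 3.10.9.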

Additional observations from a re-analysis of the deposited data

Results flagged for a closer look

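For 8 listed clock genes the difference of HFD+AOS from HFD was not that of AOS from Con. This was by the test of that contrast itself (limma, adjusted p under 0.05 over 10507 genes), which called 0.504% of all genes. Without the third Con and AOS livers it called 15 genes in place of 53. Ciart, Arntl and Dbp were still called in that fit (limma adjusted p = 0.00193, 0.0171 and 0.0251), and its values for the other flagged genes are not reported here. The times of day of sampling are not given in the sources used here, so treatment and time of sampling cannot be told apart. As log2 differences between the diets, the values were 3.26 for Ciart, 5.45 for Dbp, 2.48 for Per3 and 2.12 for Tef, and -2.70 for Arntl, -1.81 for Npas2, -1.68 for Nfil3 and -1.16 for Clock. None of the other 8 lists had a call here, with 36 of 146 listed genes at an unadjusted p under 0.05, clock genes included. Of the 8 genes described above, Fgf21 was at -1.21 (SE 0.35) and Angptl4 at -1.18 (SE 0.20) in the same contrast.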

How the results depend on the processing

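Over the alternatives, 710 of 720 differences of the 8 genes stayed within 1 SD of the replicates, 40 changed sign, all in values that were not called, and 0 called values reversed. With a pseudocount of 0.1 the log2 difference of Fgf21 was 2.07 for HFD against Con, -1.72 for A10-FMT against HFD, -1.99 in A10-FMT against Con-FMT and 1.31 in AOS against Con. Its calls for A10-FMT held under 11 of 12 alternatives, failing where only the groups compared were fitted, and its call in HFD against Con under 5 of 12.

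The number of listed genes called in HFD against Con, 2, was 1 with no filter, 1 with only the groups compared, 1 with the replicate block and 0 without the third Con and AOS livers, and 0 to 6 leaving out 1 library. The lowest was without Con replicate 1 or 3 and the highest without Con replicate 2. The 28 called in A10-FMT against HFD became 18 with no filter, 13 with only the groups compared and 17 without the third livers, and 15 to 32 leaving out 1 library (15 without HFD replicate 2 or 3). In Con-FMT against HFD, 0 became 1 with a pseudocount of 0.1 and 1 with the replicate block, and 0 to 1 leaving out 1 library. In A10-FMT against Con-FMT, 12 became 1 with only the groups compared, and 7 to 18 leaving out 1 library (7 without Con-FMT replicate 2 or A10-FMT replicate 2). In AOS against Con, 1 became 2 with only the groups compared and 0 without the third livers, and 0 to 9 leaving out 1 library (9 without Con replicate 2). In HFD+AOS against HFD, 30 became 18 to 38 leaving out 1 library (18 without HFD replicate 3). Between the diets, 8 became 13 with only the groups compared, and 8 to 13 leaving out 1 library (13 without HFD replicate 1). Over all genes the 53 calls of this contrast became 15 without the third livers. The cause of these moves was not tested. Livers with the same replicate number did not deviate together (correlations from -0.177 to 0.225), so the replicate block pairs livers that share a number alone. The depth behind the lowest Fgf21 values, about 7.38 estimated reads, limits their precision.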
